A study of Mus musculus with 6 samples.

Results

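The integrated stress response and the unfolded protein response were followed through 10 genes, Atf4, Ddit3, Asns, Trib3, Chac1, Ppp1r15a, Xbp1, Hspa5, Dnajb9 and Herpud1, out of 18193 genes with a named value. A probe set, the group of short probes that reads a transcript on these arrays, was taken for a gene where the platform annotation gave it that gene symbol and no other. All 10 genes had such a probe set, 21 in all, and probe sets of the same gene were averaged. Expression was measured on Affymetrix whole-genome mouse arrays, in endothelial cells recovered from plugs of Matrigel, a gel of basement membrane proteins. Balb/c nude mice, which lack a thymus, had carried the plugs in the peritoneal cavity. The 3 MFAP5 samples came from plugs mixed with recombinant microfibrillar-associated protein 5, a secreted glycoprotein of elastic microfibrils, and the 3 control samples from plugs without it. The amount of MFAP5, the time in the animal, the animals' age and the way endothelial cells were isolated were not stated in the labels, nor was it stated whether each sample came from its own animal, so p-values measure the spread between these samples. The comparison asked which of these stress genes differed between endothelial cells from plugs with and without MFAP5.

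In the integrated stress response, kinases that sense amino acid shortage, double-stranded RNA, haem deficiency or misfolded protein in the endoplasmic reticulum (ER) phosphorylate the translation factor eIF2, which lowers protein synthesis while favouring translation of the transcription factor ATF4. ATF4 then induces genes of amino acid supply and, with CHOP, genes that end the response or lead to cell death. The unfolded protein response adds the ER sensors IRE1 and ATF6, whose outputs, spliced XBP1 and cleaved ATF6, induce chaperones and the machinery that removes misfolded proteins. The 10 genes were read as an ATF4 arm (Atf4, Ddit3, Asns, Trib3, Chac1 and Ppp1r15a) and an ER arm (Xbp1, Hspa5, Dnajb9 and Herpud1), although Herpud1 and Ddit3 are known to respond to both.

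All values are relative log2 signals: the 6 values of a probe set had been centred on their median, so they compare arrays for a gene and give no level of it. Centring on the median of 6 arrays also places the middle pair of arrays of a probe set at mirror values on either side of 0. The base of the log was taken as 2, and folds rest on that. In bulk samples such as these, fewer cells of a type and less RNA per cell cannot be told apart. Over all genes the median log2 difference, MFAP5 minus control, was -0.0787, and 34.4% of genes had a higher mean with MFAP5. Control replicates 2 and 3 stood apart: across genes, which are not independent replicates, they correlated at 0.696 with each other and at 0.0459 and 0.0998 with control replicate 1. Control replicate 1 correlated at -0.309, -0.428 and -0.385 with MFAP5 replicates 1, 2 and 3. Control replicates 2 and 3 correlated with the MFAP5 arrays at -0.521 to -0.392. Centring over the same 6 arrays pulls correlations below 0, so a negative sign does not by itself show unlike arrays. The MFAP5 arrays correlated with each other at 0.246 to 0.484. The 14 probe sets of bacterial spike-ins added at hybridization had mean signals between -0.0381 and -0.00651 on the MFAP5 arrays, and of -0.322, 0.639 and 0.653 in control replicates 1, 2 and 3. Of 14 endothelial markers none was called by limma, and 3 had an unadjusted p under 0.05, where 19.7% of all genes did. Their array medians were between -0.15 and -0.027 with MFAP5 and -0.059, 0.20 and 0.14 in the controls. All 10 measured adipocyte markers had lower means with MFAP5 and 8 passed the test, with array medians from -2.88 to -0.96 with MFAP5 and from 1.05 to 1.35 in controls. The centred 3' signal minus the centred 5' signal of beta-actin was 0.036 to 0.144 with MFAP5 and -0.0526 to -0.00479 in controls. For Gapdh the groups overlapped, at -0.038 to 0.0855 with MFAP5 and -0.161 to 0.0327 in controls. The 3' to 5' ratio is a sign of RNA integrity. Because each probe set had been centred, these values compare arrays only and do not show whether RNA was intact. Of 8 neutrophil markers 3 were called lower. Of all genes 2.79% were called lower, a share that also stands beside the 8 adipocyte markers called. Because the values are centred, whether a marker is present or absent in these cells could not be read.

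None of the 10 stress genes passed the test between MFAP5 and control samples (limma, Benjamini-Hochberg adjusted p under 0.05 over all genes), against a background of 0.759% of genes called higher and 2.79% called lower. At an unadjusted limma p under 0.05 there were 4, Asns, Ppp1r15a, Atf4 and Chac1, where 19.7% of all genes reached it. The direction was mixed: 6 had a higher mean with MFAP5, and Asns, Chac1, Trib3 and Herpud1 a lower one. The 3 MFAP5 values lay entirely above the 3 control values for 4 genes (Atf4, Ddit3, Ppp1r15a and Hspa5) and entirely below for 2 (Asns and Chac1), while 6.51% and 17.8% of all genes had such separation upwards and downwards. Without moderation of the variance none was called either, and 2 had an unadjusted p under 0.05. With control replicate 1 left out, limma called 2 of the 10 higher, Dnajb9 and Xbp1, where 4.18% of all genes were called higher. With arrays weighted by their quality it called 4 higher and 1 lower, where 6.18% of all genes were called higher and 15.8% lower.

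**Figure D1:**
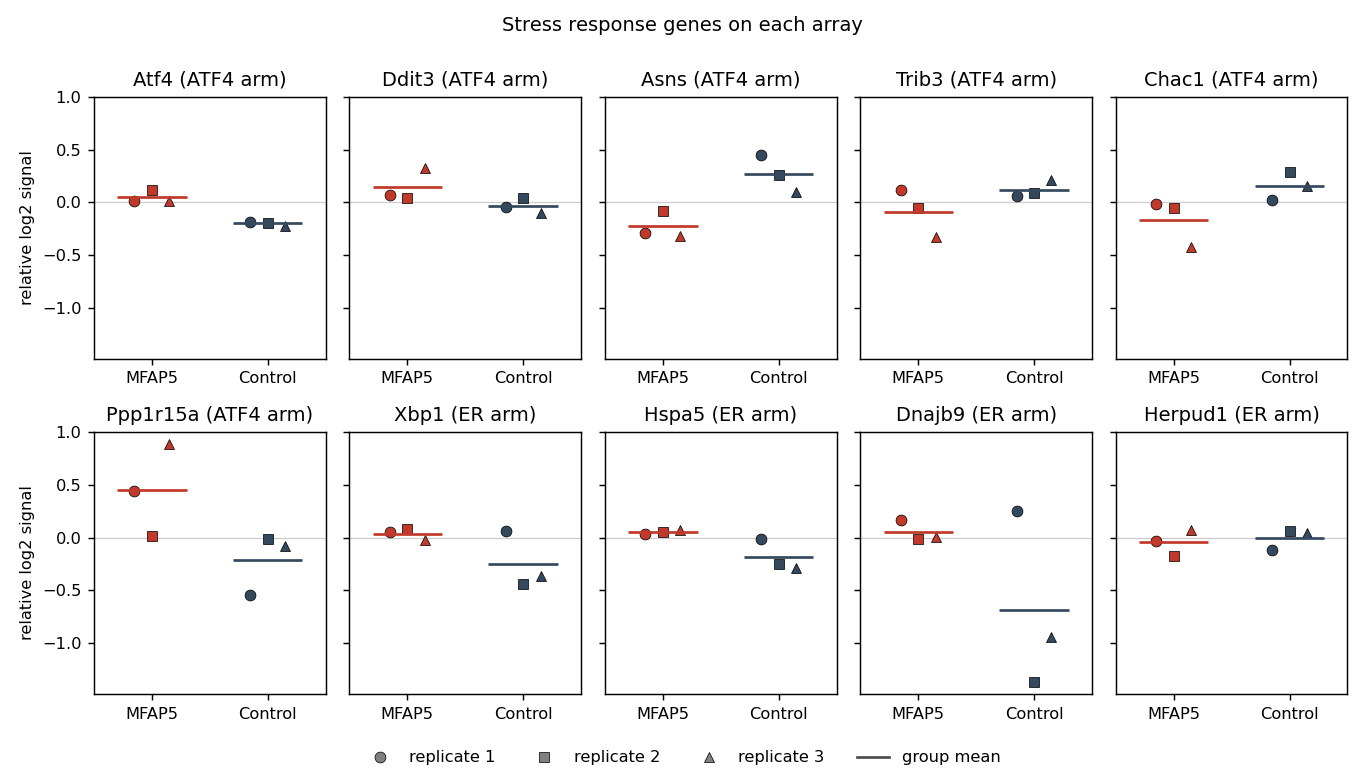
Relative log2 signal (vertical axis, centred per probe set) of the 10 stress genes on each array, MFAP5 left and control right; symbols mark replicates and horizontal lines the group means. The groups are apart for Asns, with MFAP5 below and control above 0, while for Dnajb9, Xbp1 and Hspa5 control replicates 2 and 3 lie below the other 4 arrays.

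Asns, the asparagine synthetase gene and a direct ATF4 target, had the smallest p of the 10. Its relative signals were -0.29, -0.084 and -0.32 in MFAP5 replicates 1, 2 and 3, against 0.45, 0.26 and 0.098 in control replicates 1, 2 and 3. All MFAP5 values were thus below all control values. The log2 difference was -0.50 ± 0.12 (limma SE, n = 3 per group; 0.709-fold), with a 95% interval of -0.78 to -0.21 and an adjusted p of 0.0696. Its 2 probe sets differed in size. Probe set 1451095_at was lower with MFAP5 by a log2 difference of -0.74 ± 0.13 and passed the test over all probe sets (limma adjusted p = 0.0204), the sole member probe set among 21 to do so, where 3.28% of all probe sets passed. Its values were -0.51, -0.23 and -0.52 with MFAP5, against 0.23, 0.41 and 0.30 in controls. The other, 1433966_x_at, stood at -0.25 ± 0.19 and its groups overlapped, with control replicate 1 at 0.66 and the other 5 arrays between -0.11 and 0.099. The suffix _x_at marks probe sets whose probes can also bind other transcripts. Asns was called when the _s_at and _x_at probe sets were left out (adjusted p = 0.0117), when the probe set with the largest SD stood for each gene (0.0255) and with array weights (0.0347), and in no other alternative, where the adjusted p reached 0.302.

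Chac1, which encodes a glutathione-degrading enzyme induced by ATF4, had 1 probe set, with signals of -0.018, -0.053 and -0.43 with MFAP5, against 0.018, 0.29 and 0.16 in controls. The groups did not overlap, but MFAP5 replicate 1 and control replicate 1 were the middle pair, close to 0. The log2 difference was -0.32 ± 0.14 (SE, n = 3 per group; limma adjusted p = 0.245). It was -0.19 without MFAP5 replicate 3. Trib3, a pseudokinase that restrains ATF4 and CHOP, had signals of 0.12, -0.057 and -0.33 with MFAP5, against 0.056, 0.087 and 0.22 in controls, and the groups overlapped. Its difference was -0.21 ± 0.13 (adjusted p = 0.408). The probe sets of Trib3 gave -0.36 ± 0.12 for 1426065_a_at, whose groups were apart, and -0.056 ± 0.18 for 1456225_x_at.

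The promoters of these 3 ATF4 targets are shown because each holds the core of the C/EBP-ATF response element, the site at which ATF4 binds with a C/EBP partner (letters TGATGNAA, searched on both strands), printed in capitals. The windows run from 250 bases before to 50 after the RefSeq gene start (GRCm38.p6), 5′ to 3′ on the gene's strand.
Asns, chr6:7693160-7693459, minus strand: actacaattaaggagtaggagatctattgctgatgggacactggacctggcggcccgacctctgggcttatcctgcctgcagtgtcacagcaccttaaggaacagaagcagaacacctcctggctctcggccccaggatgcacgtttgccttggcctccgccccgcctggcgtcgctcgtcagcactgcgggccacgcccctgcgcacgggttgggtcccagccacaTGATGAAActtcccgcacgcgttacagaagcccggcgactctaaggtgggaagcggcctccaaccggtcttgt
Chac1, chr2:119350992-119351291, plus strand: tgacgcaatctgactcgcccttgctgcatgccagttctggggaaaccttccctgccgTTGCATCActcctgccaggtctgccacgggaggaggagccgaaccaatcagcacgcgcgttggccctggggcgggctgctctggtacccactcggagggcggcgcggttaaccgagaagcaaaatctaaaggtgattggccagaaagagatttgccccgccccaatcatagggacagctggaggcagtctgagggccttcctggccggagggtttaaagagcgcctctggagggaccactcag
Trib3, chr2:152344011-152344310, minus strand: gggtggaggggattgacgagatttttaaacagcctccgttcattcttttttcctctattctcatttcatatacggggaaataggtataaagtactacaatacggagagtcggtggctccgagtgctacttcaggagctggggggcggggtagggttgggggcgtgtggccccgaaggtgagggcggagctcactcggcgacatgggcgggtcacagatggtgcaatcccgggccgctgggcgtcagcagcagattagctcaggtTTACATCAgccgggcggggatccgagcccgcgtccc

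The match lay at -23 to -16 from the start in Asns, on the gene's own strand, at -193 to -186 in Chac1 and at 15 to 22 in Trib3, both on the opposite strand. Of 32851 promoter windows 3.97% held this core. Herpud1, of the ER arm, holds it too and had a difference near 0. The windows of Atf4, Ddit3 and Ppp1r15a held no match, which says only that these letters are not in them. The window of Ppp1r15a held the cAMP response element TGACGTCA at -12 to -5, as 1.79% of windows did.

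The other 3 genes of the ATF4 arm had higher means with MFAP5. Ppp1r15a encodes GADD34, the phosphatase subunit that removes phosphate from eIF2 and so ends the response. Its signals were 0.44, 0.011 and 0.89 with MFAP5, against -0.54, -0.011 and -0.080 in controls. MFAP5 replicates 1 and 3 were high, control replicate 1 was low, and MFAP5 replicate 2 lay close to control replicate 2, the middle pair. The log2 difference was 0.66 ± 0.23 (SE, n = 3 per group; 1.58-fold, 95% interval 0.14 to 1.18, limma adjusted p = 0.163), and it was 0.44 without MFAP5 replicate 3.

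Atf4 itself, the transcription factor of the response, had signals of 0.015, 0.11 and 0.011 with MFAP5, against -0.18, -0.19 and -0.23 in controls, with no overlap. The difference was 0.25 ± 0.093 (adjusted p = 0.196), and it rested on 1 of 3 probe sets. Probe set 1438992_x_at gave 0.73 ± 0.20, with 0.31, 0.29 and 0.046 with MFAP5, against -0.046, -0.80 and -0.71 in controls. Probe sets 1448135_at and 1439258_at gave 0.086 ± 0.13 and -0.077 ± 0.14, and the Atf4 difference without the _x_at probe set was 0.0047 (adjusted p = 0.989). ATF4 is controlled largely at translation, which arrays do not measure.

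Ddit3, which encodes the transcription factor CHOP, had signals of 0.065, 0.038 and 0.33 with MFAP5, against -0.047, 0.038 and -0.099 in controls. The groups met at 0.038 in MFAP5 replicate 2 and control replicate 2, and the difference was 0.18 ± 0.11 (adjusted p = 0.410). Its 2 probe sets pointed in opposite directions, at 0.65 ± 0.24 for 1443897_at and -0.29 ± 0.18 for 1417516_at. In 1443897_at control replicates 2 and 3 were the lowest arrays (-0.38 and -0.61), and in 1417516_at they were the highest (0.46 and 0.41). The gene mean of Ddit3 therefore averages 2 readings that disagree.

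**Figure D2:**
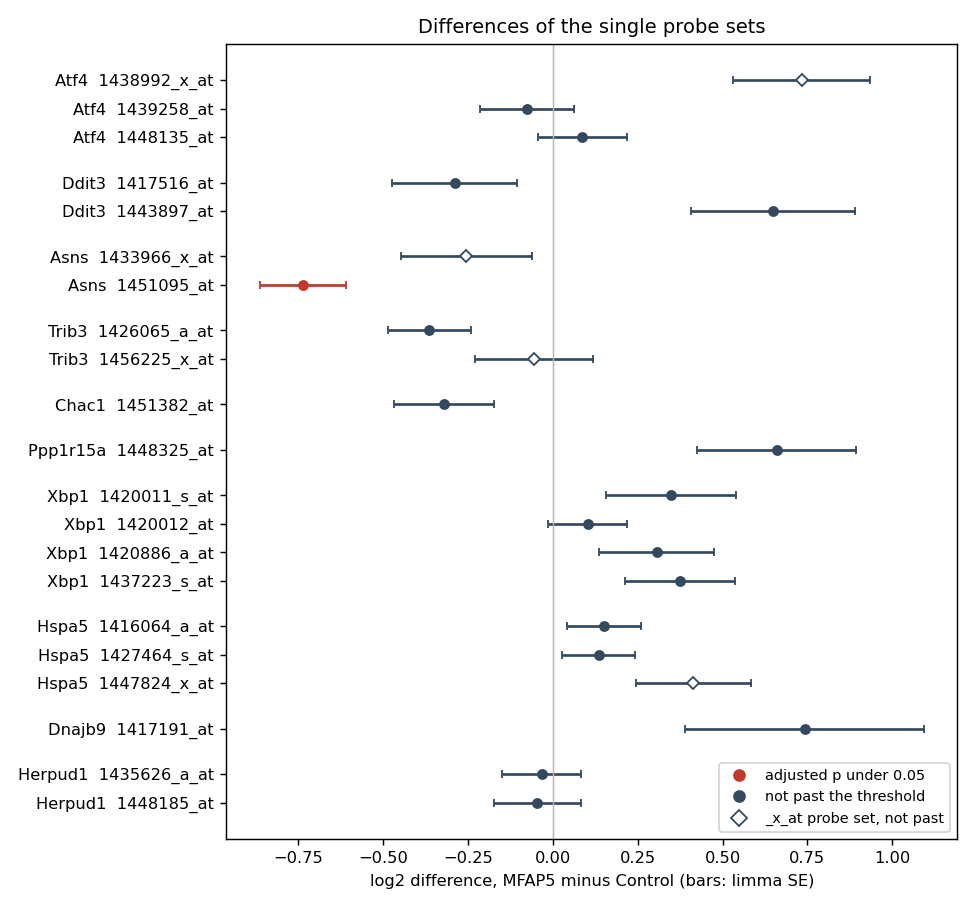
Log2 difference, MFAP5 minus control (horizontal axis), of each of the 21 probe sets of the 10 genes, with bars for the limma SE (n = 3 per group). Asns 1451095_at, in red at -0.74, is the probe set past the threshold, and the probe sets of Atf4 and of Ddit3 fall on both sides of 0.

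In the ER arm 3 of 4 genes had higher means with MFAP5, and in all 3 this came with low values in control replicates 2 and 3. Fibroblast markers were low on the same arrays: their medians were 0.17, 0.098 and -0.0073 with MFAP5, against 0.030, -0.25 and -0.21 in control replicates 1, 2 and 3. Of these 8 markers 7 had higher means with MFAP5 and 1, Pi16, was called, as lower, where 2.79% of all genes were. The part of fibroblast markers in the ER arm values was not tested. In control replicates 2 and 3 the medians of other marker lists were 0.11 and 0.059 for mesothelial, 0.037 and 0.078 for pericyte and smooth muscle markers. They were 0.057 and 0.18 for B and plasma cell, 0.15 and 0.14 for pancreatic acinar and -0.027 and 0.0015 for macrophage markers. Control replicates 2 and 3 held the lowest pair of values in 11.6% of all genes. The part of any cell type in the ER arm values was not tested. Dnajb9 encodes ERdj4, a DnaJ co-chaperone of the ER induced by XBP1. Its signals were 0.17, -0.0098 and 0.0098 with MFAP5, against 0.26, -1.37 and -0.94 in control replicates 1, 2 and 3. Control replicate 1 was thus the highest of all 6 arrays and the other controls the lowest. The difference was 0.74 ± 0.35 (SE, n = 3 per group; limma adjusted p = 0.284). Without control replicate 1 it was 1.21 (adjusted p = 0.00718), without control replicate 2 it was 0.40, and with control replicate 1 as the sole control it was -0.20; adjusted p over the alternatives ran from 0.00718 to 0.790.

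Xbp1, the transcription factor that IRE1 activates by splicing its mRNA, had signals of 0.051, 0.078 and -0.025 with MFAP5, against 0.064, -0.44 and -0.37 in controls. Again control replicate 1 lay with the MFAP5 arrays. The difference was 0.28 ± 0.14 (adjusted p = 0.310), with 4 probe sets between 0.10 and 0.37. It was 0.44 without control replicate 1 (adjusted p = 0.0269) and -0.029 with control replicate 1 as the sole control, with adjusted p up to 0.978 over the alternatives. These values stand for total Xbp1 signal, and its splicing was not analysed here.

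Hspa5, which encodes the main ER chaperone BiP, had signals of 0.033, 0.050 and 0.075 with MFAP5, against -0.0089, -0.25 and -0.28 in controls. The groups did not overlap, though control replicate 1 lay just under the lowest MFAP5 array. The difference was 0.23 ± 0.11 (95% interval -0.013 to 0.48, adjusted p = 0.276). Probe sets 1416064_a_at and 1427464_s_at gave 0.15 and 0.14, and 1447824_x_at gave 0.41, with -0.54 and -0.60 in control replicates 2 and 3. Without control replicate 1 the Hspa5 difference was 0.32 (adjusted p = 0.0524), with that replicate as the sole control 0.062, and over the alternatives adjusted p ran from 0.0320 to 0.951.

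Herpud1 encodes an ER membrane protein of the degradation machinery. Its signals were -0.035, -0.17 and 0.074 with MFAP5, against -0.12, 0.061 and 0.046 in controls, and the groups overlapped. The difference was -0.040 ± 0.11 (95% interval -0.29 to 0.21, adjusted p = 0.863), and both probe sets gave it, at -0.046 and -0.033. Of all genes 84% had a smaller p.

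The promoters of Hspa5 and Herpud1 are shown because each carries a form of the ER stress response element, at which ATF6 acts with NF-Y. The capitals mark that element and, first in Herpud1, the C/EBP-ATF core (same windows and build as above).
Hspa5, chr2:34771840-34772139, plus strand: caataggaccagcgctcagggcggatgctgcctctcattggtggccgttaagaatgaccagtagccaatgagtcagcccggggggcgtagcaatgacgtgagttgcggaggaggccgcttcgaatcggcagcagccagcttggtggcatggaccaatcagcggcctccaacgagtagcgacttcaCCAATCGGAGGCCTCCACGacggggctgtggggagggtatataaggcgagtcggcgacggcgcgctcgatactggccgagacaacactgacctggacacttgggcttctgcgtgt
Herpud1, chr8:94386179-94386478, plus strand: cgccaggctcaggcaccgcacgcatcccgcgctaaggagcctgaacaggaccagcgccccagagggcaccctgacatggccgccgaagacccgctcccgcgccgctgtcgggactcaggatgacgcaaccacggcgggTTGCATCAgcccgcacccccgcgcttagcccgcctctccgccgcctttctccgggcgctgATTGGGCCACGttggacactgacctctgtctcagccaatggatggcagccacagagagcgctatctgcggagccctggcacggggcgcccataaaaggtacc

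In Hspa5 the ER stress response element (CCAAT and CCACG with 9 bases between) lay at -65 to -47, and in Herpud1 its second form (ATTGG and CCACG with 1 base between) lay at -52 to -42, with the C/EBP-ATF core at -112 to -105 on the opposite strand. These elements were held by 0.119% and 0.0365% of the 32851 windows. The XBP1 element TGACGTGG, found in 0.676% of windows, was in none of the 10. The windows of Xbp1 and Dnajb9 held none of the 5 motifs searched. Hspa5 and Herpud1, the 2 genes with such an element, had differences of 0.23 and -0.040.

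Set side by side, the 2 arms lay apart in control replicates 2 and 3 and close together on the other 4 arrays. This closeness is partly given by the centring, which holds the other arrays near 0 where 2 arrays are low. It also comes from ATF4 arm genes that cancel, as Ppp1r15a at 0.89 and Chac1 at -0.43 in MFAP5 replicate 3. It does not show that the arms move together. The mean of the 6 ATF4 arm genes was 0.056, -0.0050 and 0.026 with MFAP5, against -0.042, 0.078 and 0.011 in controls, a difference of 0.010. That near-zero mean joins Ppp1r15a at 0.66 and Asns at -0.50. The mean of the 4 ER arm genes was 0.055, -0.013 and 0.033 with MFAP5, against 0.048, -0.50 and -0.39 in controls, a difference of 0.30. The ATF4 arm mean minus the ER arm mean was 0.00040 ± 0.0078 with MFAP5 and 0.29 ± 0.34 in controls (SD, n = 3 each), and the group difference of -0.29 is set against a pooled SD of 0.244. Without control replicate 1 the group difference was -0.49, without control replicate 2 it was -0.15, and with control replicate 1 as the sole control it was 0.090. No p is given for these means, since the genes were chosen with results of these data known.

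**Figure D3:**
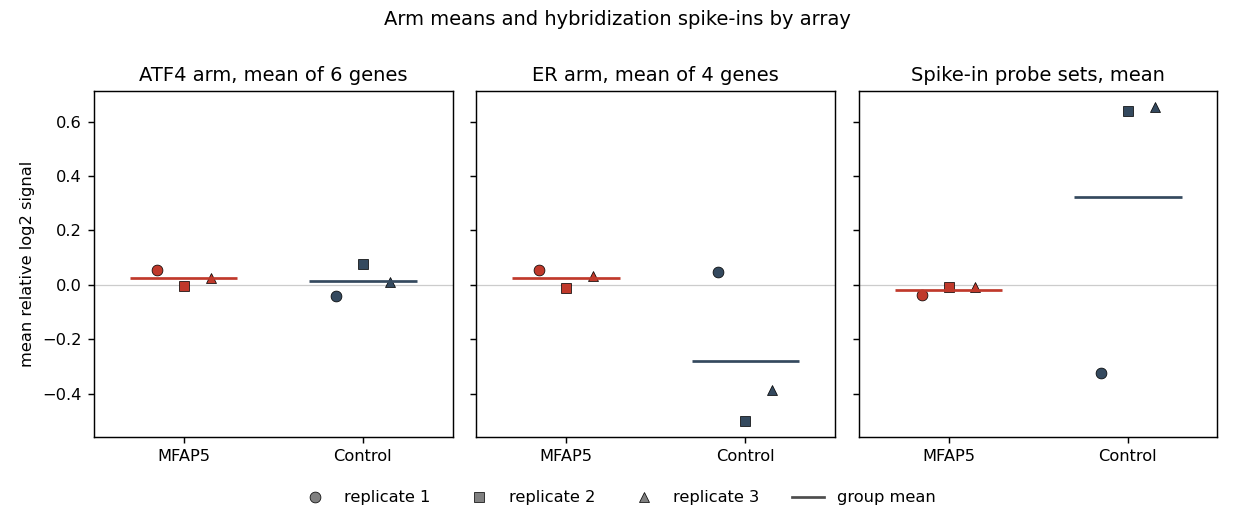
Mean relative log2 signal per array (vertical axis) of the 6 ATF4 arm genes, the 4 ER arm genes and the 14 spike-in probe sets, MFAP5 left and control right, with lines for group means. Control replicates 2 and 3 are the lowest arrays of the ER arm (-0.50 and -0.39) and the highest for the spike-ins (0.639 and 0.653).

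Control replicates 2 and 3 held the lowest pair of values in 4 of the 10 genes, Atf4, Xbp1, Hspa5 and Dnajb9, and in 11.6% of all genes. This pattern was chosen after the values had been seen. With the spike-in mean of each array as covariate, the differences were 0.25 for Dnajb9, 0.12 for Xbp1, 0.14 for Hspa5 and 0.24 for Atf4 (limma adjusted p = 0.507, 0.619, 0.511 and 0.282). The same covariate left Asns at -0.59 and Ppp1r15a at 0.83 (adjusted p = 0.0600 and 0.163). The spike-in means were close to each other on the MFAP5 arrays, so this covariate mostly sets control replicate 1 against control replicates 2 and 3. It therefore tends to lower the difference of any gene lower in control replicates 2 and 3 than in replicate 1. The covariate cannot separate spike-in level from anything else that sets these arrays apart. The part of hybridization in the ER arm values was not tested.

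**Figure D4:**
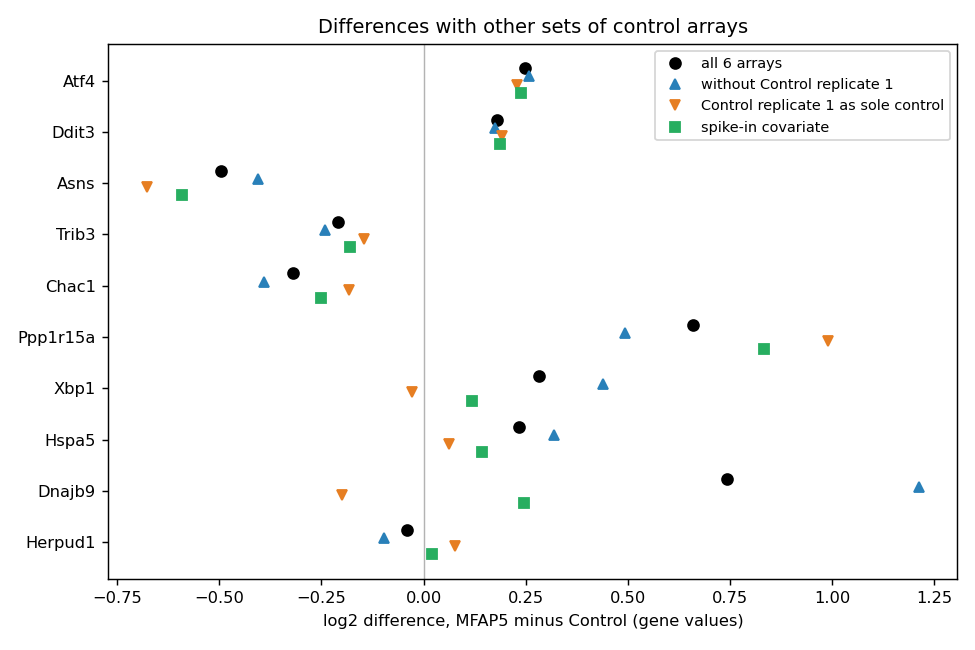
Log2 difference, MFAP5 minus control (horizontal axis), of each gene with all 6 arrays, without control replicate 1, with control replicate 1 as the sole control, and with the spike-in mean as covariate. Dnajb9 moves between 1.21 and -0.20 with the control arrays used, while Asns stays between -0.41 and -0.68.

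Beyond the 10 genes, 153 other genes of both pathways were measured, on 9 lists of which the stress gene members were no part. Of these 153, 1 rose and 3 fell (limma adjusted p under 0.05), or 2.61%, which is near the share of all genes called. Their median log2 difference was -0.034, against -0.0787 over all genes. The count depended on single arrays. It was 11 higher and 18 lower without control replicate 1, where 760 and 1914 of all 18193 genes were called. It was 0 higher and 1 lower without control replicate 2, control replicate 3 or MFAP5 replicate 1. Omitting MFAP5 replicate 2 gave 2 higher and 3 lower, and omitting MFAP5 replicate 3 gave 3 of each.

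The genes of amino acid supply are set beside all genes, of which 11935 of 18193 had lower means with MFAP5 and the median was -0.0787. Of all genes 2.79% were called lower and 17.8% were lower without overlap of the groups. Of 13 genes of amino acid synthesis 11 had lower means with MFAP5 and 2 fell, with a median of -0.21. An unadjusted limma p under 0.05 was found for 5, where 19.7% of all genes had one. Cth, cystathionine gamma-lyase, which makes cysteine, had signals of -1.13, -0.39 and -0.93 with MFAP5, against 0.39, 0.67 and 0.48 in controls. The groups were apart, and Cth fell by 1.33 ± 0.18 on the log2 scale (SE, n = 3 per group; 0.398-fold, adjusted p = 0.00670). It passed the test whichever single sample was left out (adjusted p from 0.00163 to 0.0444), but not with the unmoderated statistic (0.163) or with control replicate 1 as the sole control (0.360), and the other pathway calls were lost under these 2 settings as well. Gpt2, the mitochondrial alanine aminotransferase, fell by 0.62 ± 0.097 (adjusted p = 0.0119), and missed the threshold without control replicate 2 or 3 or MFAP5 replicate 1 (adjusted p = 0.0567, 0.0767 and 0.0563). Phgdh and Psat1, enzymes of serine synthesis, stood at -0.36 and -0.49 without overlap of the groups and missed the threshold (adjusted p = 0.0982 and 0.135).

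Of 10 amino acid transporters 7 had lower means, close to the share over all genes, and 1 fell, with a median of -0.12. Of all genes 2.79% fell. An unadjusted limma p under 0.05 was found for 4 transporters, where 19.7% of all genes had one. Slc1a5, the glutamine transporter ASCT2, fell by 0.70 ± 0.13 (adjusted p = 0.0288), with signals of -0.57, -0.52 and -0.15 with MFAP5, against 0.15, 0.35 and 0.33 in controls. It missed the threshold when any sample other than control replicate 1 or MFAP5 replicate 3 was left out (adjusted p from 0.0884 to 0.139), and with the spike-in covariate (0.0998). Slc1a4, a neutral amino acid transporter, was at -0.46, Slc7a11, the cystine transporter, at -0.30 and Slc38a1 at -0.33, each without overlap and with adjusted p between 0.0812 and 0.205. Such separation downwards was found in 17.8% of all genes. Of 19 aminoacyl-tRNA synthetases, many of which ATF4 also induces, limma called none, 14 had lower means and the median was -0.11. An unadjusted limma p under 0.05 was found for 6, where 19.7% of all genes had one. The leading genes were Rars, Kars, Sars and Farsb at -0.35, -0.38, -0.38 and -0.28. Without control replicate 1, 5 of the 19 passed, where 760 of all 18193 genes were called higher and 1914 lower. In the same 3 MFAP5 arrays all 10 adipocyte markers were lower. The centred 3' minus 5' signal was higher there without overlap for beta-actin but not for Gapdh. The part of either in these values was not tested.

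Among 15 factors and signals of the integrated stress response 1 rose, Atf3, a stress-induced transcription factor downstream of ATF4 that many other stimuli induce as well. Of all genes 0.759% were called higher. Atf3 had signals of 0.86, 0.46 and 1.74 with MFAP5, against -0.76, -0.46 and -0.46 in controls, and rose by 1.58 ± 0.28 (adjusted p = 0.0209). It missed the threshold without control replicate 2 or 3 or MFAP5 replicate 1 (adjusted p = 0.0913, 0.0888 and 0.0556) and with the spike-in covariate (0.0706), where its difference was 1.69. Sqstm1, the autophagy receptor p62, was at 0.58 ± 0.14 with groups apart (adjusted p = 0.0629). Eif4ebp1, the translational repressor 4E-BP1, and Fgf21, a stress-induced hormone, were at -0.35 and -0.71 and missed the threshold (adjusted p = 0.153 each). The list median was 0.11, with 8 positive and 7 negative differences. An unadjusted limma p under 0.05 was found for 6 of the 15, where 19.7% of all genes had one.

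No gene was called by limma on the other 5 lists. Among 17 genes of the eIF2 kinases, phosphatases and the exchange factor eIF2B, 4 had an unadjusted p under 0.05, where 19.7% of all genes did. Eif2b1 and Eif2b3, subunits of eIF2B, were at -0.69 ± 0.16 and -0.59 ± 0.15 with groups apart (adjusted p = 0.0525 and 0.0735). Nck1, an adaptor that modulates eIF2 phosphorylation, and Eif2ak2, the kinase PKR that senses double-stranded RNA, were at 0.45 and 0.31 (adjusted p = 0.0833 and 0.177). Without control replicate 1, 6 genes of this list passed, where 760 of all 18193 genes were called higher and 1914 lower. Without MFAP5 replicate 2, 1 gene of the list passed. Of 9 ER stress sensors 1 had an unadjusted p under 0.05, Creb3l1 at 0.46, and its groups overlapped; without MFAP5 replicate 3, 1 gene of this list passed.

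The 27 ER chaperones and foldases had a median of -0.00020, with 13 positive and 14 negative differences. At an unadjusted limma p under 0.05 there were 3, where 19.7% of all genes reached it. Calr, the lectin chaperone calreticulin, was at 0.28 ± 0.095, with 0.11, 0.21 and 0.091 with MFAP5, against -0.089, -0.19 and -0.14 in controls. Manf, an ER stress-induced secreted protein, was at 0.28 ± 0.10, and Fkbp2, a prolyl isomerase, at -0.25 ± 0.11. The groups of these 3 genes were apart and adjusted p lay between 0.159 and 0.247. Over all genes 6.51% lay apart upwards and 17.8% downwards. Of 20 genes of ER-associated degradation 5 had an unadjusted p under 0.05, where 19.7% of all genes did. Edem3, a mannosidase-like protein, was at 0.45 ± 0.11 and Selenos, a selenoprotein of the retrotranslocation complex, at 0.44 ± 0.14, while Derl3, a derlin, was at -0.29 and Nploc4, a cofactor of VCP, at -0.27. The 23 genes of ER translocation and vesicle coats had a median of 0.0015 and 1 gene at an unadjusted p under 0.05, Ssr3, a subunit of the translocon-associated complex, at 0.65, with -0.88 and -0.72 in control replicates 2 and 3 and values from -0.0087 to 0.21 on the other 4 arrays. Leaving out control replicate 1 gave 3, 3 and 1 called genes on these 3 lists, where 760 of all 18193 genes were called higher and 1914 lower. Leaving out any other sample gave none on these lists.

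**Figure D5:**
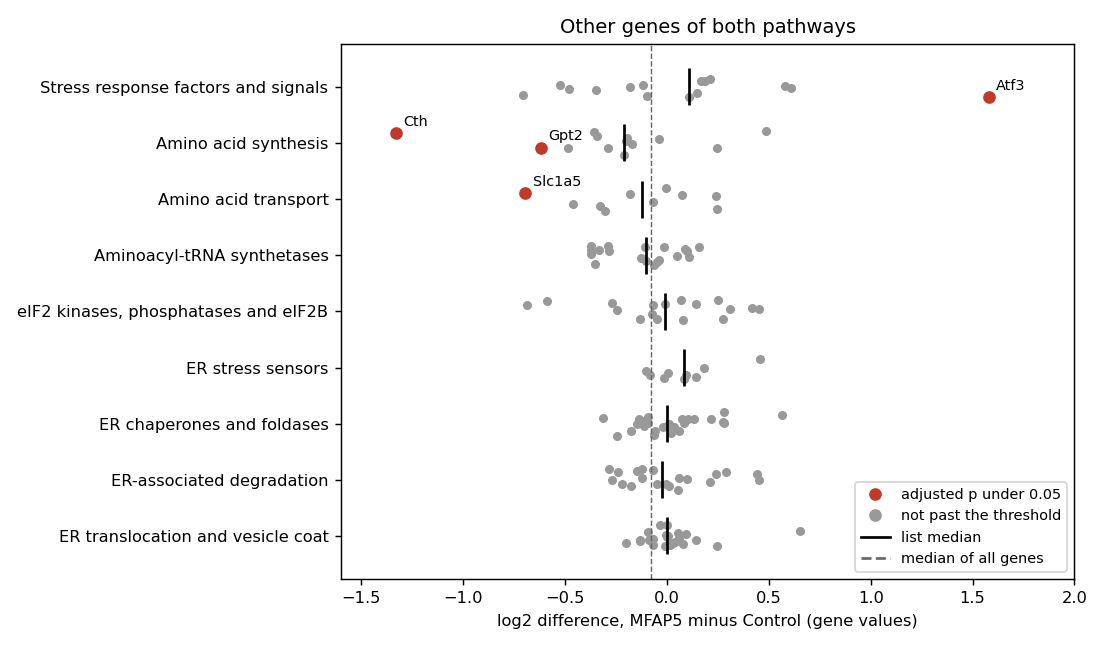
Log2 difference, MFAP5 minus control (horizontal axis), of the genes of 9 pathway lists, with black bars for list medians and a dashed line for the median of all genes (-0.0787). The genes past the threshold, in red, are Atf3 at 1.58 and Cth, Gpt2 and Slc1a5 between -1.33 and -0.62, and the 3 lowest lists in the plot are centred near 0.

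The genes outside all lists whose values over the 6 arrays were most like the mean of the ATF4 arm were 4930470H14Rik, Lpcat1, Crisp2, Dgkh and Bpifa1 (Pearson's r from 0.983 to 0.989), none of which differed between groups by more than 0.056. Small differences were given by choosing genes for likeness to a mean that itself differed by 0.01. The genes most like the mean of the ER arm were Plac8l1, Hnrnpk, Zfp160, Smim15 and R3hdm2 (r from 0.994 to 0.996). In these 5 the 2 lowest arrays were control replicates 2 and 3, a pattern given by choosing genes for likeness to that mean. Hnrnpk, which encodes an RNA-binding protein, had -0.67 and -0.49 there and 0.0086 to 0.088 on the other arrays. These correlations rest on 6 arrays and on the best of all genes outside the lists, and are given as a description.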

How the data were processed

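Biotin-labelled cRNA of each sample went onto its own array, per the labels' protocols. MAS5 is the tool the submitters' processing notes name, with no scaling stated. The deposited values were taken as log2 signals centred per probe set, as read from the values: probe set medians were within 5.0e-07 of 0 and the widest probe set spanned 8.24 units, too wide for base 10. A natural log was not excluded, and higher values were taken as more signal. Of 45101 probe sets 64 control probe sets were left out of the tests; 34945 of the other 45037 had 1 gene symbol, and a check of symbols through Entrez identifiers in a RefSeq table (GRCm38.p6) changed 0.

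Genes and probe sets were each fitted with limma (version 3.58.1, R 4.3.3; two-sided moderated statistic with no variance trend, Benjamini-Hochberg adjustment over all features, threshold 0.05). The procedure was tested on simulated data with planted differences. The members, their 2 arms and the lists were chosen with earlier results of these data known. Named genes were the members, the 4 genes of smallest p on each pathway list and the 5 genes most correlated with each arm. Of 160 pathway genes listed 153 were measured under a name; the others are not analysed here. Alternatives were quantile normalization, median centring, array weights, eBayes with a trend, an unmoderated statistic, other choices of probe sets, the replicate number as a block, the spike-in level as a covariate and leaving out each sample. Control replicate 1 as the sole control was added after the data had been seen. No level, detection call or filter on dim probe sets could be had from centred values, and the 6 arrays limit the precision. Promoters came from a RefSeq table (GRCm38.p6), in which all 10 members had a window.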

Additional observations from a re-analysis of the deposited data

How the results depend on the processing

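Of 160 values of the 10 genes under 16 alternatives, 146 kept their direction and side of the threshold, 9 kept their direction and newly passed it, and 5 reversed. With control replicate 1 as the sole control, where the lone control is assumed to vary like the other group, Dnajb9 was at -0.20, Xbp1 at -0.029, Herpud1 at 0.076 and the difference of the arms at 0.090; limma then called 0 genes in either direction, of all genes and of the pathway genes, with 1526 at an unadjusted p under 0.05. Herpud1 was at 0.021 with the spike-in covariate and between -0.098 and 0.023 with single samples left out, above 0 without MFAP5 replicate 2.

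Called members were 0 in each direction; array weights gave 4 higher and 1 lower, and the probe set with the largest SD and the omission of _s_at and _x_at probe sets gave 1 lower each. With single samples left out, 0 to 2 members were higher and 0 lower, all genes called were 14 to 760 higher and 205 to 1914 lower, and pathway genes 0 to 11 higher and 1 to 18 lower. Main counts of all genes were 138 higher and 508 lower. Array weights gave 1125 and 2879, with 18 and 24 pathway genes; the unmoderated statistic 0 and 1 (2815 at an unadjusted p under 0.05), with 0 and 0 pathway genes; and the spike-in covariate 48 and 316, with 0 pathway genes higher. The probe set with the largest SD gave 223 higher, with 2 pathway genes, quantile normalization 3 pathway genes higher and the variance trend 2. The cause of these shifts was not tested.

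Whether the replicate numbers pair the samples could not be settled. Deviations from the group means of same-numbered samples correlated at 0.18, 0.0555 and 0.0719 over genes, and samples of different numbers at -0.126 to 0.0581. Control replicate 2 alone correlated best with another number, at 0.0581 with MFAP5 replicate 3. With the replicate block 153 genes were higher and 590 lower, 0 members were called, and 1 and 4 pathway genes were.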

Other observations

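The following genes of both pathways were not chosen by the naming rule and were picked after their values were seen. Hsp90b1, the ER chaperone GRP94, had signals of 0.048, 0.087 and -0.048 with MFAP5, against 0.20, -0.99 and -0.82 in control replicates 1, 2 and 3, again with control replicate 1 highest and the other controls lowest, and its difference was 0.57 ± 0.27 (SE, n = 3 per group; limma adjusted p = 0.295). Hyou1, an ER chaperone that works with BiP, had 0.030, 0.084 and -0.049 with MFAP5, against 0.086, 0.037 and 0.0085 in controls. Ddit4, which encodes the mTORC1 inhibitor REDD1 and is a target of ATF4, was at 0.91 and 1.29 in MFAP5 replicates 1 and 2 but at -0.45 in replicate 3, against 0.040, -0.040 and -0.069 in controls (difference 0.61, adjusted p = 0.403).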
